A study of Mus musculus with 2 samples.

Results

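The miR-17~92 cluster is a group of 6 microRNA (miRNA) genes that are cut from 1 primary transcript on mouse chromosome 14. Its genes Mir17, Mir18, Mir19a, Mir20a, Mir19b-1 and Mir92-1 were taken by symbol, and all 6 were found among the 2202 miRNA genes of the count tables. The tables come from small RNA sequencing of hippocampus from female mice of the strain B6CASTF1/J aged 2 months, a cross with the wild-derived CAST strain of Mus musculus castaneus. There is 1 group, made up of biological replicates 1 and 2, with no treatment and no altered gene named in the labels. The tissue is labelled as a layer of hippocampus that is not named further, and both tissue records point to 1 donor record. Part of the spread between the replicates may therefore be technical.

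A miRNA is a short RNA of about the length of a sequencing read in such a library. It is cut from a hairpin in a longer transcript by the nuclease Drosha and then by Dicer, and it guides Argonaute proteins to messenger RNAs that pair with its seed, bases 2 to 8 from the 5′ end. The miR-17~92 cluster is best known for driving proliferation and survival, is induced by Myc and E2F factors, and is highly expressed in embryonic tissue, neural progenitors and lymphomas. In the adult hippocampus it has been linked to neural stem cells and to the birth of new granule neurons. Known targets of its members include the pro-apoptotic gene Bcl2l11 and the cell cycle inhibitor Cdkn1a.

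The 6 hairpins lie on the plus strand between positions 115043671 and 115044506 of chromosome 14 (mm10), a span of 836 bases. All 6 fall within exon 2 (115043271 to 115046727) of the only annotated transcript of Mir17hg (ENSMUSG00000089726.2), the non-coding host gene, which runs from 115042879 to 115046727. Gaps between neighbouring hairpins were 96, 53, 75, 41 and 35 bases. The mature sequences that define the members are printed first because the seeds sort the 6 genes into 4 families and because identical sequences decide which reads could be given to a gene. Letters are from RefSeq (GRCm38.p6), and capitals mark the seed.

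miR-17-5p (Mir17): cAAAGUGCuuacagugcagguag

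miR-20a-5p (Mir20a): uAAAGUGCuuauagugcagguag

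miR-18a-5p (Mir18): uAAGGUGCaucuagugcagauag

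miR-19a-3p (Mir19a): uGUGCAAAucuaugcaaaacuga

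miR-19b-3p (Mir19b-1): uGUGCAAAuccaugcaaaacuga

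miR-92a-3p (Mir92-1): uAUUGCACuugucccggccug

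Mir17 and Mir20a share the seed of the miR-17 family and differ at 2 of 23 positions, C1U and C12U, counted from the 5′ end of miR-17-5p. Mir18 carries a seed of its own, and miR-18a-5p differs from miR-17-5p at 6 positions, of which A4G lies in the seed. Mir19a and Mir19b-1 share a seed, and their mature 3′ arms differ at 1 position, U11C from miR-19a-3p to miR-19b-3p. Mir92-1 has the fourth seed, that of the miR-92 and miR-25 family. The tables assign no gene to a read with several matches, so copies in other miRNA genes matter for 2 members. Copies outside annotated transcripts were not searched for. The miR-19b-3p sequence is identical in Mir19b-1 and in Mir19b-2 on chromosome X, and the hairpins share 25 bases. The miR-92a-3p sequence is identical in Mir92-1 and in Mir92-2 on chromosome X, and these hairpins share 22 bases. A read that lies within such a stretch matches both genes, so the counts of Mir19b-1 and Mir92-1 are uncertain and can be too low. The longest stretch shared with another miRNA gene was 13 bases for Mir17 and Mir19a and 17 bases for Mir18 and Mir20a.

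Replicate 1 held 4517648 and replicate 2 held 5979247 reads on the sense strand of miRNA genes, and levels are given as counts per 1000000 of these (CPM). How evenly the libraries captured different sequences was not measured, so differences in level between genes are differences in counted reads. Reads that map to several places made up 45.9% and 48.4% of all reads. Intervals are 95% Wilson intervals and, like the floor of 3 counts used where a gene had none, cover counting error only. Of the neuronal markers Mir132, Mir137, Mir128-1 and Mir138-1, all 4 were counted in both libraries, and together they held 4.25% and 4.77% of the counts.

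Of the 6 members, 4 were counted and 2 were not. By the reads that could be given to 1 gene, Mir17 led the cluster, followed by Mir92-1 and Mir20a, with Mir18 far below them. Both miR-19 genes stood at 0 in both libraries. Mir17, the founding member of the family that targets Cdkn1a among others, had 2614 counts in replicate 1 and 3532 in replicate 2. This gave 578.6 CPM (556.9 to 601.2) and 590.7 CPM (571.6 to 610.5), with a mean of 584.7 ± 8.55 CPM (SD, n = 2) and rank 122 among all 2202 genes. Mir92-1, the last hairpin of the transcript, had 1819 and 2333 counts. Its levels were 402.6 CPM (384.6 to 421.6) and 390.2 CPM (374.7 to 406.3), a mean of 396.4 ± 8.81 CPM (SD, n = 2). Mir20a, the second gene with the miR-17 seed, had 1010 and 1386 counts. Its levels were 223.6 CPM (210.2 to 237.8) and 231.8 CPM (219.9 to 244.3), a mean of 227.7 ± 5.82 CPM (SD, n = 2). For these 3 genes the intervals of the libraries overlap within each gene, and no value of one gene reaches the range of another. In whole tissue, fewer cells that express a gene and less RNA per cell cannot be told apart. The counts do not separate the arms of a hairpin, so a gene's level may include both.

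Mir18, the only counted gene with the miR-18 seed, had 94 counts in replicate 1 and 290 in replicate 2. Its levels were 20.8 CPM (17.0 to 25.5) and 48.5 CPM (43.2 to 54.4), a mean of 34.7 ± 19.6 CPM (SD, n = 2) at rank 251. The libraries stand apart for this gene, with replicate 2 high and replicate 1 low. Both values lie below every value of Mir20a, the next gene up.

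**Figure D1:**
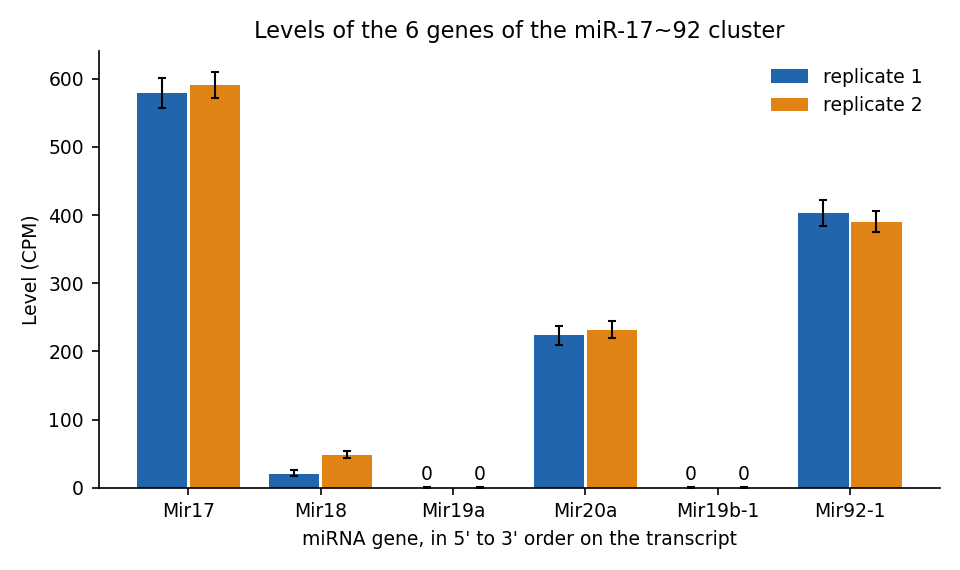
Level in CPM (y axis) of each gene of the cluster (x axis, in 5′ to 3′ order on the transcript) in replicates 1 and 2, with 95% Wilson intervals as error bars. Mir17 reached 578.6 and 590.7 CPM, while Mir19a and Mir19b-1 were at 0 in both libraries.

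Mir19a and Mir19b-1 had 0 counts on the sense strand, on the antisense strand and in the column without regard to strand, in both libraries. A count of 0 allows up to 0.664 CPM in replicate 1 and 0.502 CPM in replicate 2. Mir17 stood 871-fold above the floor of 3 counts in replicate 1 and 1177-fold above it in replicate 2. For Mir19b-1 this covers only reads that could be given to it, since whole miR-19b-3p reads also match Mir19b-2. miR-19 is the part of the cluster best known for promoting lymphoma, and its hairpins alternate with counted ones: Mir19a lies between Mir18 and Mir20a, and Mir19b-1 between Mir20a and Mir92-1. The third gene with this seed, Mir19b-2 of the X-linked paralogue, was also at 0 in both libraries, so none of the 3 miR-19 genes was counted.

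The tables keep no reads that map to several places, and these cannot be traced back to a gene here. A whole miR-19b-3p read matches Mir19b-1 and Mir19b-2, so it could not be given to either gene. Mir19a differs in this respect as far as annotated genes go. Its mature sequence occurs in no other miRNA gene in RefSeq, and among GENCODE transcripts outside the miRNA genes it was found in Mir17hg only. The other arm of the Mir19b-1 hairpin, miR-19b-1-5p, also occurs in no other miRNA gene of RefSeq. The genome outside annotated transcripts was not searched, so whether these sequences match elsewhere was not tested. At 34.8% G and C, miR-19a-3p has the lowest G and C content of the defining arms, followed by miR-20a-5p and miR-19b-3p at 39.1% each. Of 34 genes whose RefSeq mature sequences all lie at or below 34.8%, 19 had no count (55.9%) and 12 reached 10 counts in each library. The cut is the value of miR-19a-3p itself, and Mir19a is 1 of the 19. The highest of the 34 was Mir98, with a mean of 6498 CPM. Over all 1018 genes matched to a RefSeq mature sequence, 35.9% had no count. Whether base composition or the mapping of reads plays a part in the zeros was not tested.

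Genes at 0 beside abundant neighbours were then counted. Of 121 genes with a RefSeq mature sequence and with another miRNA gene of at least 100 CPM in the same cluster of hairpins, 8 had no count in either library, and Mir19a and Mir19b-1 are 2 of these 8. Without the restriction to RefSeq, 114 of 248 genes with such a neighbour had no count (46.0%). Of the zeros, 102 lay in the group from Gm22072 to Mir669h on chromosome 2. Both counts, and the restriction, were made after the zeros of the members had been seen, so they do not show that such zeros are rare.

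Since the 6 genes share 1 transcript, their shares of the cluster were compared. Whole miR-92a-3p reads also match Mir92-2 and are not counted. The share of Mir92-1 can therefore be too low, and the shares of the other counted members too high. The cluster held 5537 counts in replicate 1 and 7541 in replicate 2, or 0.123% (0.119 to 0.126) and 0.126% (0.123 to 0.129) of all counts on miRNA genes. Mir17 made up 47.2% (45.9 to 48.5) of the cluster's counts in replicate 1 and 46.8% (45.7 to 48.0) in replicate 2. Mir20a made up 18.2% (17.2 to 19.3) and 18.4% (17.5 to 19.3). Both genes of the miR-17 family thus kept nearly the same share in both libraries, with overlapping intervals. Mir92-1 made up 32.9% (31.6 to 34.1) and 30.9% (29.9 to 32.0), so its intervals overlap only between 31.6 and 32.0. No test of the shares was made. Mir18 made up 1.70% (1.39 to 2.07) in replicate 1 and 3.85% (3.43 to 4.30) in replicate 2, and these intervals do not overlap.

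The order of the counted members was Mir17, Mir92-1, Mir20a and Mir18 in each library. It did not follow the order of the hairpins along the transcript, where the second and the last hairpin are Mir18 and Mir92-1. The order was the same when levels were divided by hairpin length, which ranges from 80 bases for Mir92-1 to 107 for Mir20a. Mir17 stood 1.44-fold above Mir92-1 in replicate 1 and 1.51-fold in replicate 2, and Mir92-1 stood 1.80-fold and 1.68-fold above Mir20a. Whole miR-92a-3p reads also match Mir92-2 and were not given to Mir92-1, so its place in the order and its folds are uncertain. Per gene, Mir17 stood 27.8-fold above Mir18 in replicate 1 and 12.2-fold in replicate 2, so the distance to the lowest counted gene depends on the library. Without Mir18, the highest and lowest counted genes differed 2.59-fold and 2.55-fold. No test between members was made, since 2 libraries cannot pass a threshold of 0.05 in an exact paired test (the smallest two-sided p is 0.5).

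The libraries were then compared gene by gene with Fisher's exact test (two-sided, a gene's counts against those of the remaining genes), with Benjamini-Hochberg adjustment over the 420 genes that reached 10 counts in each library. This compares 2 libraries and not conditions. Among the 4 counted members, 1 was higher in replicate 2, none was lower and 3 did not pass, against 56.9% of all tested genes that differed, 27.1% higher and 29.8% lower. Mir18 was the gene that passed (Fisher's exact test, adjusted p = 1.33e-13), 2.33-fold higher in replicate 2 by CPM. Its log2 ratio was 1.20 on the scale log2(CPM + 0.5). The 95% exact binomial interval was 0.88 to 1.57, and all such intervals were taken from counts without the added 0.5. Mir17 had a log2 ratio of 0.03 (interval -0.04 to 0.10; adjusted p = 0.526 by Fisher's exact test), Mir20a 0.05 (-0.07 to 0.17; adjusted p = 0.495) and Mir92-1 -0.05 (-0.13 to 0.04; adjusted p = 0.422). The intervals of these 4 genes cover counting error only. Those of Mir17, Mir20a and Mir92-1 do not reach the log2 ratio of Mir18.

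Over all 420 tested genes the median fold between the libraries was 1.23, and the median log2 ratio was -0.07. A ratio as far from 0 as that of Mir18, in either direction, was seen in 32 tested genes (7.62%). Among the 121 tested genes between 10 and 100 CPM the median fold was 1.30, and 16 of them lay as far from 0 as Mir18. By contrast, 19 of the 420 genes lay closer to 0 than Mir17, 32 closer than Mir92-1 and 38 closer than Mir20a. This closeness depends on the scaling. With DESeq2 size factors the log2 ratios were 0.07 for Mir17, 0.10 for Mir20a and -0.002 for Mir92-1. The summed level of the cluster was 1226 CPM in replicate 1 and 1261 CPM in replicate 2, a ratio of 1.03.

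**Figure D2:**
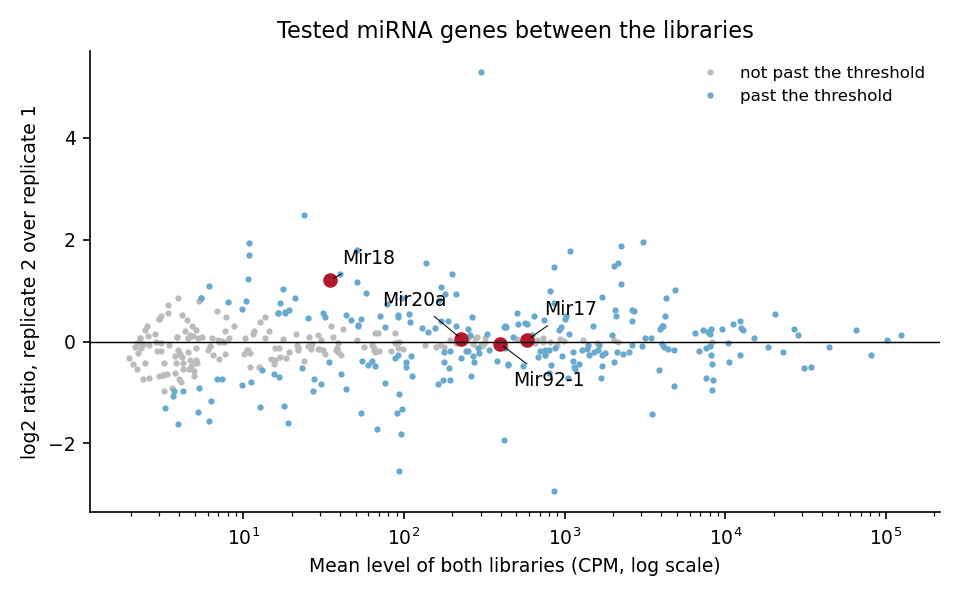
Each point is 1 of the 420 tested genes, with its mean CPM (x axis, log scale) and the log2 ratio of replicate 2 over replicate 1 (y axis). Blue points passed the threshold of Fisher's test and grey points did not. Mir17, Mir20a and Mir92-1 (red) lie near 0, and Mir18 (red) lies at 1.20.

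Markers of other cell types were set beside this difference. Their counts are read against all tested genes, of which 56.9% differed, 27.1% higher and 29.8% lower in replicate 2. The summed level of the 3 red cell markers was 95.4 CPM in replicate 1 and 142.5 CPM in replicate 2, with 2 of 3 higher. The 3 choroid plexus markers summed to 1474 and 2001 CPM, with 2 of 3 higher, and the 3 endothelial and mural markers to 19223 and 22325 CPM, with 2 of 3 higher. The 4 microglial and leukocyte markers summed to 1126 and 1217 CPM, with 1 of 4 higher. That gene, Mir150, carried the larger sum, while Mir142, Mir155 and Mir223 did not pass and had log2 ratios of -0.21, -0.15 and -0.31, and the median of the list was -0.18. No marker of these 4 lists was at 0. The 2 oligodendrocyte markers summed to 6526 and 6974 CPM, with 1 higher and 1 lower, and of the 4 neuronal markers 1 was higher and 2 were lower. The part of these cell types in the difference of Mir18 was not tested.

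Mammals carry paralogues of this cluster, copies that arose by duplication and hold genes with the same seeds. The X-linked cluster of Mir106a, Mir18b, Mir20b, Mir19b-2, Mir92-2 and Mir363 is known mainly from embryonic cells. Its 6 genes summed to 24.8 and 20.1 CPM in replicates 1 and 2, so miR-17~92 was 49.4-fold and 62.8-fold more abundant by summed level. The miR-106b~25 cluster (Mir106b, Mir93 and Mir25), in the replication gene Mcm7, held 1785 and 1852 CPM, 1.46-fold and 1.47-fold more than miR-17~92. Whole reads of miR-92a-3p and miR-19b-3p match both miR-17~92 and the X-linked cluster and are in neither sum. The folds between the clusters are therefore uncertain. Only 2 of the 6 X-linked genes, Mir20b and Mir92-2, had enough counts to be tested between the libraries, and neither passed. Of miR-106b~25, Mir106b and Mir25 were higher in replicate 2 (log2 ratios of 0.10 and 0.43; adjusted p = 0.0365 and 0.00259 by Fisher's exact test), and Mir93 did not pass. Over all tested genes 56.9% differed, 27.1% higher and 29.8% lower. Mir106b differed 1.07-fold and Mir25 1.34-fold, beside a median fold of 1.23 over all tested genes.

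Genes with the miR-17 seed AAAGUGC were set side by side. They came to 2553 CPM in replicate 1 and 2624 CPM in replicate 2, of which Mir17 and Mir20a supplied 31.4% and 31.3%. Mir93 was the most abundant at 1285 and 1306 CPM, 2.22-fold and 2.21-fold above Mir17. Mir106b had 460.4 and 492.2 CPM and lay below Mir17 in each library. miR-106a-5p differs from miR-17-5p at 1 position, U10A, yet Mir106a had 5 and 8 counts where Mir17 had 2614 and 3532. Its X-linked neighbour Mir20b had 22 and 14 counts, and Mir20a was 45.9-fold and 99.0-fold more abundant by CPM. Mir6383, which has the same seed and lies in none of the 3 clusters, had no count.

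miR-17-5p (Mir17): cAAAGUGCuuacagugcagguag

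miR-106a-5p (Mir106a): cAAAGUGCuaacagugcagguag

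miR-93-5p (Mir93): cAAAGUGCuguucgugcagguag

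In the miR-18 family Mir18 was the only counted gene, since Mir18b had 0 counts in both libraries. By counted reads, the miR-92 family was led by a gene outside the clusters. Mir92b, which is known from neural progenitors, reached 7307 and 6445 CPM in replicates 1 and 2. It was 18.1-fold and 16.5-fold above Mir92-1 among the reads that could be given to 1 gene. The miR-92b-3p sequence occurs in 1 gene, while whole miR-92a-3p reads match 2 genes and are not counted. These folds can therefore be too high. The seed AUUGCAC occurs in 7 genes, which came to 7789 and 6923 CPM, and Mir92-1 supplied 5.17% and 5.64% of that. For the same reason, this share of Mir92-1 can be too low. Mir92-2, which shares the whole miR-92a-3p sequence with Mir92-1, had 74 and 90 counts. Mir92-1 was 24.6-fold and 25.9-fold above it among the reads that could be given to 1 place. How reads of miR-92a-3p that match both genes divide between them cannot be told from these tables. Mir25 had 40.1 and 54.0 CPM, Mir32 20.6 and 17.7 CPM, and Mir363 11 and 8 counts, while Mir367 had none.

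miR-92a-3p (Mir92-1 and Mir92-2): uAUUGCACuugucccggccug

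miR-92b-3p (Mir92b): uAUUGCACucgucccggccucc

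**Figure D3:**
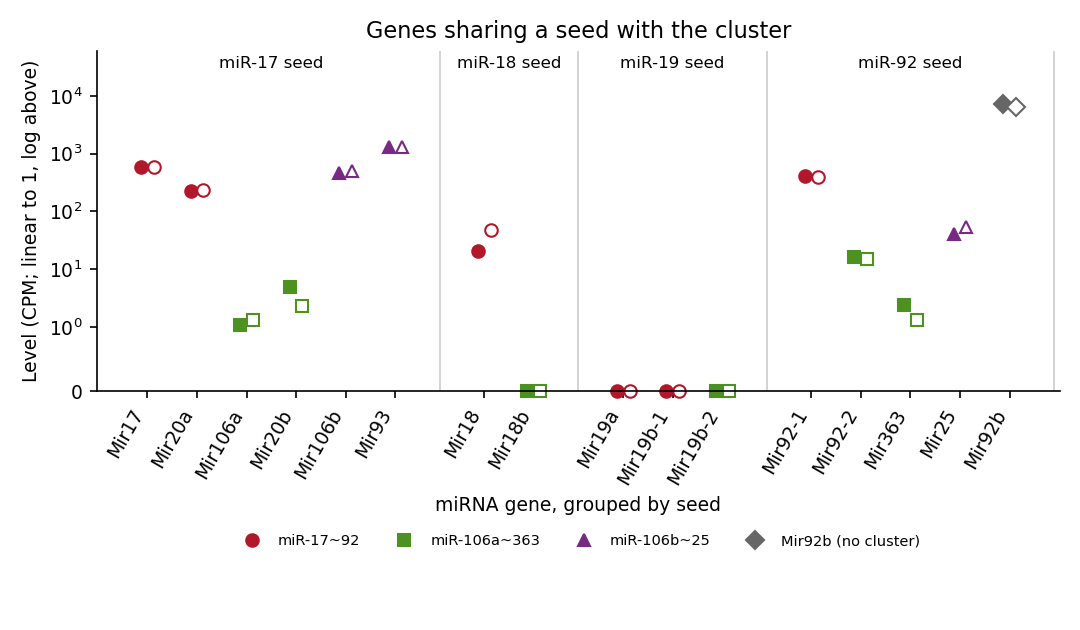
Level in CPM (y axis, linear up to 1 and log above) of the 16 genes of the 3 clusters and Mir92b, grouped by seed (x axis). Filled symbols are replicate 1 and open symbols replicate 2. The 3 genes with the miR-19 seed and Mir18b lie at 0, and Mir92b lies highest, at 7307 and 6445 CPM.

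To place the spread among genes of 1 transcript, other groups of hairpins were treated in the same way. Same-strand miRNA genes at most 10000 bases apart formed 14 clusters with 3 or more tested genes. The ratio of the highest to the lowest tested gene, taken on mean CPM, was 16.9 for miR-17~92, the eleventh largest of the 14, beside a median of 54.0. The largest ratios were those of the groups from Mir770 to Mir136 (2359) and from Mir379 to Mir3072 (1689) in the imprinted Dlk1-Dio3 region, and of Mir23b to Mir24-1 (447.0). The last of these was 1085 in replicate 1 and 267.2 in replicate 2, so it depends on the library. The smallest were those of Mir429 to Mir200b (5.02), Mir99b to Mir125a (5.85) and Gm22650 to Mir1264 (15.3). The ratio for miR-106b~25 was 27.5. These ratios cover tested genes only, so the 2 miR-19 genes are left out of that of miR-17~92. Such a ratio can grow with the number of tested genes. That number was 4 for miR-17~92, and 13 and 35 for the 2 groups of the Dlk1-Dio3 region. It was 3 for Mir23b to Mir24-1 and for the 3 groups with the smallest ratios. Genes with identical copies can be undercounted in any of the clusters, which was not measured. Genes of 1 cluster are not certain to share 1 transcript, which was not tested.

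**Figure D4:**
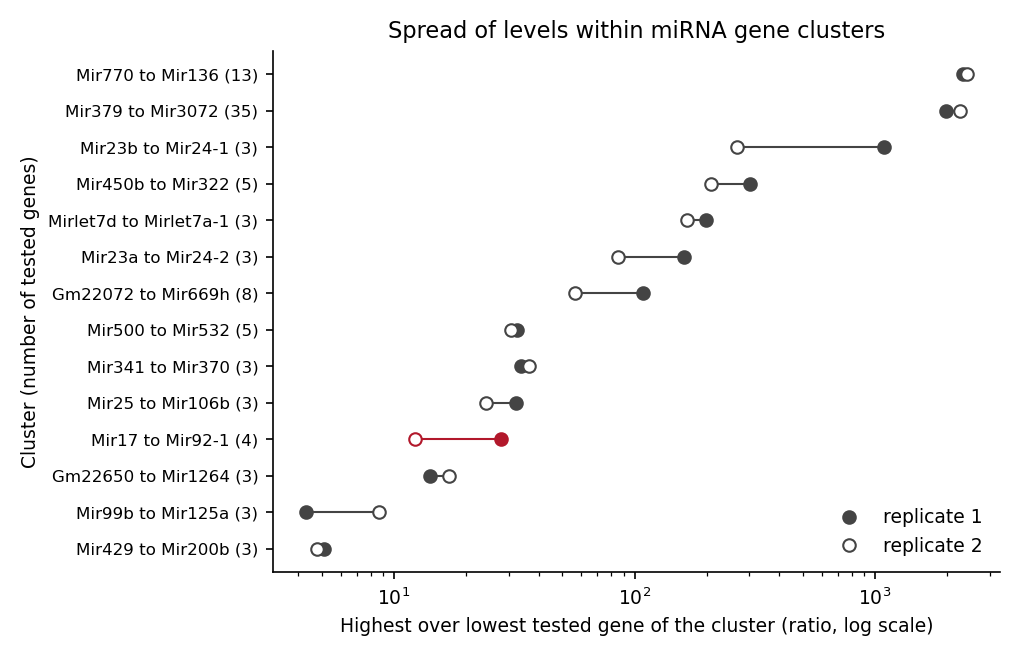
Ratio of the highest to the lowest tested gene (x axis, log scale) in each of 14 clusters (y axis, with the number of tested genes), in replicate 1 (filled) and replicate 2 (open). The miR-17~92 cluster (red) lies at 27.8 in replicate 1 and 12.2 in replicate 2.

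By how far members differed in their log2 ratio between the libraries, miR-17~92 was placed sixth of 14, at 1.25 beside a median of 1.08. That range runs from -0.05 for Mir92-1 to 1.20 for Mir18. A range of this kind can also grow with the number of tested genes.

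Among tested genes outside the 3 clusters and Mir92b, those nearest to Mir17 in level over both libraries were Mir1843a at 560.7 and 580.5 CPM, Mir1843b at 593.5 and 652.8 CPM, and Mir3099 at 513.3 and 653.6 CPM. Likeness was measured as the Euclidean distance on log2(CPM + 0.5) over 2 libraries, which was 0.05, 0.15 and 0.23. With 2 libraries this is a likeness of level alone.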

How the data were processed

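Per the deposited notes, the authors counted reads over miRNA genes of mm10 and GENCODE M21 in 1 table of whole numbers per library, neither normalized nor pooled. The aligner, the adapter trimming and the mapping of castaneus alleles to mm10 were not given in the sources used here. The tables have no header. Of the strand columns, the one with the larger total was taken as sense. The leading lines for reads given to no gene (61.3% and 63.3% of all reads) were left out of totals and tests.

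Symbols and positions came from GENCODE M21, and mature sequences from RefSeq (GRCm38.p6), matched by symbol. Hairpins were compared on both strands. CPM were computed from sense counts, with a pseudocount of 0.5 CPM for ratios. The Fisher tests (scipy 1.17.1) were tried on simulated data with set folds for some genes and no variation beyond counting. The simulation therefore does not cover other variation between libraries. Scaling factors for alternatives came from edgeR 4.0.16 and DESeq2 1.42.0, where exact binomial tests at the scaled totals took the place of Fisher's. With 1 group, no quasi-likelihood test was possible.

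The 6 members, the 10 paralogue genes with Mir92b, the marker lists and the rules for the nearest genes and the named clusters were chosen with earlier results of these data known. Mir6383, Mir32 and Mir367 were found by seed and are outside that rule. The alternatives were the other count column, other minimum counts, scalings, pseudocounts, denominators and cluster gaps, a thinned library, and leaving out a replicate.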

Additional observations from a re-analysis of the deposited data

How the results depend on the processing

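The call of Mir18 as higher in replicate 2 and the lack of a call for Mir17, Mir20a and Mir92-1 held with TMM factors, DESeq2 size factors, the column without regard to strand, the deeper library thinned, no filter, and minimums of 1 and 5 counts. With a minimum of 100 counts Mir18, at 94 counts in replicate 1, was not tested, so 0 members were higher. The share of the cluster, 0.124% of all counts, became 0.135% with the column without regard to strand, 0.142% with the most abundant gene left out of the denominator, and 0.0847% over the 4 members that share no mature sequence with another gene. These 3 shifts follow from smaller totals or fewer genes. The share was 0.123% without replicate 2 and 0.126% without replicate 1. The ratio of the highest to the lowest counted member ran from 12.2 without replicate 1 to 27.8 without replicate 2, and was 19.3 per base of hairpin. The median of that ratio over clusters was 27.5 at a gap of at most 1000 bases and 60.3 at 50000. A single library gives levels but no comparison. No log2 ratio of a member changed sign under these settings, while the share of higher genes among all that differed was 47.7% (51.7% under TMM scaling, 52.5% under that of DESeq2). No paired analysis was possible because there is 1 group. Of the 6 X-linked paralogues, 2 had enough counts to be tested between the libraries. Why the others had few counts or none was not tested.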
